A study of Mus musculus with 4 samples.

Results

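The keratins described here are 8 of the 31053 genes in the deposited count tables: the basal keratins Krt5, Krt14, Krt15 and Krt17 and the simple keratins Krt7, Krt8, Krt18 and Krt19. They were taken by gene symbol as keratins known from basal and from simple epithelia, with no measured value used. Their transcripts were counted as unique molecular identifiers (UMIs, 1 per captured molecule) and summed within classes of thymic epithelial cells (TECs) that were gated on marker genes including no keratin.

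Keratins build the intermediate filaments of epithelial cells, and every filament pairs a type I chain with a type II chain. Cells on the basement membrane of stratified epithelia pair type II Krt5 with type I Krt14, whereas single-layered epithelia pair type II Krt8 with type I Krt18. In the thymus, KRT5 and KRT14 are widely used as stains of medullary TECs (mTECs) and KRT8 and KRT18 as stains of cortical TECs (cTECs), and cells staining for KRT5 and KRT8 together have been described near the border of cortex and medulla.

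TECs were sorted as EpCAM+ CD45- TER119- cells from 6-week-old C57BL/6 mice that were wild-type or lacked CD40, a receptor of the TNF receptor family. At 4 weeks of age the mice received, under the skin, 5 mg/kg of an antibody that neutralizes RANKL (the ligand of RANK) or of control IgG, and cells were collected 2 weeks later. The 4 conditions, with 1 droplet library each, were the wild-type control (WT-Control), the wild-type with antibody (WT-RANKL-Ab), the knockout control (Cd40-/- Control) and the knockout with antibody (Cd40-/- RANKL-Ab). Every library pooled cells of 3 mice, so animals cannot be told apart, there are no replicates, and condition and library cannot be told apart either.

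Wherever 4 values follow each other, the wild-type libraries come before those of the knockout, and within each genotype the control comes before the antibody. The libraries held 95607338, 48888745, 66755852 and 19175068 UMIs in 10590, 7446, 9118 and 2099 barcodes. After removal of barcodes with few genes or a high mitochondrial share, 10218, 7164, 8591 and 2082 cells were kept, with median depths of 7621.5, 6086.0, 6267.0 and 7531.5 UMIs. Cd40 itself stood at 110.0, 28.8, 5.75 and 4.75 UMIs per 1000000 UMIs of the library (CPM), low in both Cd40-/- libraries.

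The Cd40-/- libraries shared more barcodes than the other pairs did. Of the kept cells, 205 carried a barcode present in both, which was 9.85% of the smaller library, and other pairs of libraries shared 17 to 116. These 205 barcodes had a median of 723.0 UMIs in Cd40-/- Control and 24073.0 UMIs in Cd40-/- RANKL-Ab. For 187 of these cells in Cd40-/- Control, the best match among the 205 in Cd40-/- RANKL-Ab was the cell with the same barcode. Other cells were not compared. Of the 205 barcodes, 153 fell into the same class in both libraries. Values of the Cd40-/- libraries were therefore also calculated without these barcodes. In the 4 classes compared below, 101 keratin ratios with intervals apart from 0 held a Cd40-/- library, and the direction of all 101 was the same without them, and some of the ratios without them are given.

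Cells were assigned by the share of their UMIs in marker genes, and 26346 of 28055 kept cells fell into 16 classes. The classes with most weight here were a pair of Ccl21a-high mTEC classes, split by Mgp and Gpx3 into Mgp-low and Mgp-high, a progenitor-like class (Pdpn, Dcn, Fmod, Serpinf1, Ackr4), a cTEC-like class (Psmb11, Prss16 and 5 others), a tuft-like class and an Aire+ mTEC-like class. Class sizes in Ccl21a-high Mgp-low were 1457, 1973, 730 and 223 cells. Ccl21a-high Mgp-high held 2045, 1612, 1295 and 782 cells, progenitor-like 170, 521, 346 and 226, and cTEC-like 322, 622, 771 and 376. Aire+ mTEC-like cells numbered 3404, 455, 2172 and 4, so the class gives no level in the last library.

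The class limits cut through continuous scores. Within 1.5-fold of the Ccl21a limit lay 719 cells just below and 773 just above it, and at the cTEC limit 613 below and 482 above. The progenitor limit had 1016 cells just below and 874 just above, counted over all kept cells. It was passed by 2592 kept cells, of which 1263 are in the class itself. Cells that also passed a gate earlier in the order, such as those of the cTEC list or Ccl21a, were placed elsewhere. Median marker sums per 10000 UMIs in progenitor-like cells were 28.8 for the progenitor list, 14.7 for the cTEC list, 0.654 for Ccl21a and 0 for the Aire+ list. Ccl21a-high Mgp-low cells had medians of 203 for Ccl21a, 7.47 for the Aire+ list and 3.27 for the cTEC list.

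Levels are CPM of the summed UMIs of a class in a library, with exact Poisson 95% intervals, and ratios between libraries are log2 values with conditional binomial 95% intervals. These intervals cover counting error only. UMIs of this 3′ assay do not scale with transcript length, so levels of different genes are compared directly as CPM. The smallest two-sided p of the exact permutation test used here, over 4 libraries, is 1 in 8. By that test no difference between classes can pass a usual threshold. Class differences are given as a mean log2 difference with its SD over the 4 libraries.

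Among all classes with at least 50 cells, the basal pair Krt5 and Krt14 was highest in the Ccl21a-high mTECs and the simple pair Krt8 and Krt18 in the cTEC-like cells. Krt17 was the most abundant basal keratin in each of those classes but reached well beyond the Ccl21a-high cells. Krt7, named a simple keratin, was highest in Ccl21a-high cells, and Krt19 was highest in tuft-like cells. Krt15 was scarce in most classes.

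Krt5, the type II keratin of basal cells, stood at 1503, 2121, 1261 and 1942 CPM in Ccl21a-high Mgp-low cells and at 1411, 1649, 1271 and 1346 CPM in Mgp-high cells. Both RANKL-Ab libraries were high in the Mgp-low class, and no intervals of that class overlapped between libraries. The Mgp-low class ranked first in 3 libraries; in Cd40-/- Control it could not be separated from the Mgp-high class. In progenitor-like cells Krt5 was at 228, 454, 187 and 301 CPM, and its mean log2 difference between Mgp-low and progenitor-like cells was 2.60 (SD 0.25, n = 4 libraries).

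Krt14, the type I partner of Krt5, followed a different order within the Ccl21a-high cells. It stood at 2289, 2846, 2026 and 3223 CPM in the Mgp-high class and at 1551, 2227, 1351 and 2791 CPM in the Mgp-low class. Mgp-high ranked first and Mgp-low next in all 4 libraries, with intervals apart, and the log2 difference of Mgp-low from Mgp-high averaged -0.43 (SD 0.18). Progenitor-like cells held 729, 1326, 707 and 795 CPM of Krt14, against 184, 320.3, 123 and 208 CPM in cTEC-like cells. That difference averaged 2.12 (SD 0.27), or 3.55 (SD 0.08) without cells that passed the gates of several classes. In WT-RANKL-Ab the cTEC-like level without those cells, 108 CPM, was near the 107 CPM of thymocyte-gated cells (log2 ratio 0.02, -0.31 to 0.36), and the part of free RNA in that difference was not tested. Krt5 differed between the same classes by a mean of -0.13 (SD 0.67) with 3 libraries of the same sign, and this turned to 0.80 (SD 0.73) without those cells.

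Krt17, a type I keratin of basal, appendage and stressed epithelium, stood at 6098, 6428, 5477 and 5532 CPM in Ccl21a-high Mgp-low cells and at 4138, 4140.3, 3524 and 3698 CPM in Mgp-high cells. The difference between the classes had a mean log2 of 0.60 (SD 0.04). Without cells past several gates it was 0.61, 0.58, 0.61 and 0.37, where the last library was at 0.58 with them. Krt17 made up 66.5%, 59.6%, 67.2% and 53.8% of the basal UMIs of the Mgp-low class and 88.5%, 80.1%, 83.0% and 74.3% in cTEC-like cells. Keratinocyte-like cells reached 7582 CPM in WT-RANKL-Ab, above the Mgp-low class, and 5017 and 5407 CPM in WT-Control and Cd40-/- Control.

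Krt15, a type I keratin known from basal and hair follicle stem cells, was present in few cells. It stood at 17.7, 3.65, 58.8 and 15.0 CPM in Ccl21a-high Mgp-low cells and at 19.9, 6.14, 74.5 and 15.6 CPM in Mgp-high cells. In both classes Cd40-/- Control was highest and WT-RANKL-Ab lowest, with their intervals apart from each other and from the remaining libraries. Without cells past several gates, Cd40-/- RANKL-Ab was at 6.18 CPM (2.82 to 11.7) in Mgp-low cells. It then overlapped WT-RANKL-Ab at 3.78 CPM (2.75 to 5.07). The UMIs came from 58, 26, 75 and 11 Mgp-low cells, and the top 10 cells held 66.7%, 66.0%, 49.1% and 96.3% of them. The highest Krt15 class differed between libraries, and its 355 CPM in keratinocyte-like cells of WT-RANKL-Ab came to 81.3% from 1 cell.

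Krt8, the type II keratin of simple epithelia, stood at 3644, 4484, 3876 and 4534 CPM in cTEC-like cells. Krt18, its type I partner, stood at 4951, 6587, 6065 and 8040.3 CPM in the same cells. For both genes cTEC-like cells ranked first in all 4 libraries, with no overlap with the next class. Neither gene was confined to cTEC-like cells, since Krt8 reached 1387, 1538, 1405 and 2344 CPM and Krt18 1569.9, 1846, 1488 and 2893 CPM in Ccl21a-high Mgp-low cells. The mean log2 difference of Mgp-low from cTEC-like cells was -1.34 (SD 0.26) for Krt8 and -1.75 (SD 0.24) for Krt18, against 3.27 (SD 0.42) for Krt14.

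Progenitor-like cells carried the simple pair near the level of the Mgp-high class. Their Krt8 was at 1369, 1445, 1298 and 1218 CPM and their Krt18 at 1712, 1665, 1609.6 and 1626 CPM. The log2 difference of Mgp-high from progenitor-like cells averaged -0.03 for Krt8 and 0.03 for Krt18. The same difference averaged 2.35 for Krt5, 2.04 for Krt17, 1.57 for Krt14, 0.90 for Krt7 and -3.17 for Krt19, each with the same sign in 4 libraries. Krt17 of progenitor-like cells was at 1102, 1226, 691 and 844 CPM.

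Krt7, a type II keratin of glandular and ductal simple epithelia, stood at 707, 1141, 543 and 991 CPM in Ccl21a-high Mgp-low cells and at 722, 1145, 513 and 772 CPM in Mgp-high cells. A Ccl21a-high class ranked first for Krt7 in every library, although neighbours overlapped in 3 of them. In cTEC-like cells Krt7 reached 253, 604, 281 and 468 CPM, a mean log2 difference of 1.11 (SD 0.26) from the Mgp-low class. Over 57 sums with at least 50 cells, 53 of a class in a library and 4 of the ungated cells of a library, Krt7 had r = 0.82 with the basal sum and r = 0.53 with the simple sum. Such sums share libraries and classes and include those of thymocyte-gated cells, so the correlations are descriptive.

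Krt19, a type I keratin of many simple and ductal epithelia, was led by the tuft-like class with 601, 398, 369.8 and 347 CPM. WT-Control was high there, and the other 3 libraries lay close together. Progenitor-like cells held 106, 163, 71.1 and 184 CPM, whereas Ccl21a-high Mgp-low cells held 15.7, 6.37, 14.2 and 50.6 CPM. The log2 difference of Mgp-low from progenitor-like cells averaged -2.90 (SD 1.24), and that of progenitor-like from tuft-like cells -1.77. In progenitor-like cells of WT-RANKL-Ab the Krt19 UMIs came from 156 of 521 cells, so they were not held by a few cells as those of Krt15 were.

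**Figure D1:**
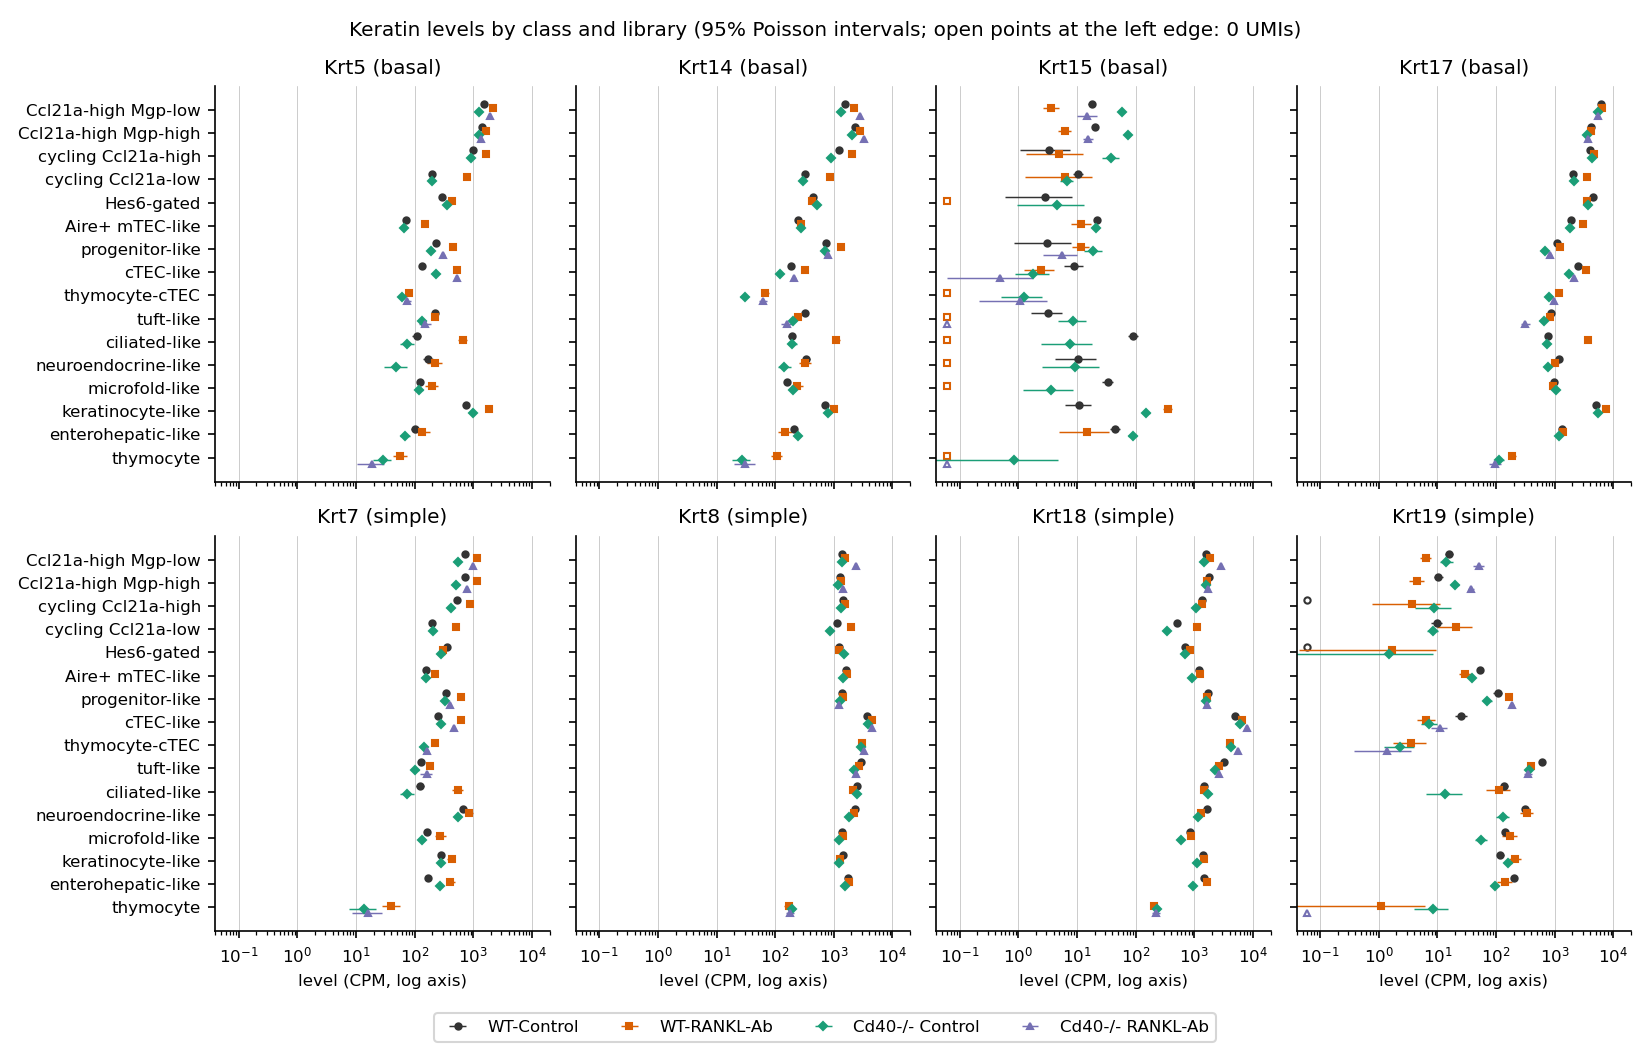
Levels of the 8 keratins in CPM on a log axis in each class with at least 50 cells, 1 panel per gene, with the 4 libraries as colours and shapes, exact Poisson 95% intervals as bars and open points at the left edge for 0 UMIs. Krt8 and Krt18 peak in cTEC-like cells (Krt18 from 4951 to 8040.3 CPM), Krt5 and Krt14 in Ccl21a-high cells, and Krt19 in tuft-like cells.

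Basal keratins made up 71.4%, 70.4%, 70.2% and 62.1% of the UMIs of all 8 keratins in Ccl21a-high Mgp-low cells. In the Mgp-high class the basal share was 67.3%, 67.6%, 67.7% and 67.8%, with overlapping Clopper-Pearson intervals. The Mgp-low value of Cd40-/- RANKL-Ab was the only value of these classes outside the range from 67.3% to 71.4%. Progenitor-like cells were intermediate at 36.9%, 43.7%, 32.7% and 36.3%, and cTEC-like cells held 24.1%, 26.7%, 16.9% and 18.0%. With cTEC-like cells past 1 gate only, the shares were 13%, 16.5%, 11.6% and 13.6%. Tuft-like cells had the lowest share in Cd40-/- RANKL-Ab, 10.2%, from 280 basal UMIs.

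Filaments need equal numbers of type I and type II chains, and the transcripts of the 8 keratins were not equal in number. The ratio of type II UMIs (Krt5, Krt7, Krt8) to type I UMIs (Krt14, Krt15, Krt17, Krt18, Krt19) was 0.389, 0.457, 0.383 and 0.468 in Ccl21a-high Mgp-low cells. It was 0.531, 0.573, 0.586 and 0.553 in progenitor-like cells and 0.525, 0.543, 0.554 and 0.532 in cTEC-like cells. Type I transcripts were in excess in all of these sums. All 8 keratins together took 1.29%, 1.53%, 1.16% and 1.66% of the UMIs of Ccl21a-high Mgp-low cells.

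**Figure D2:**
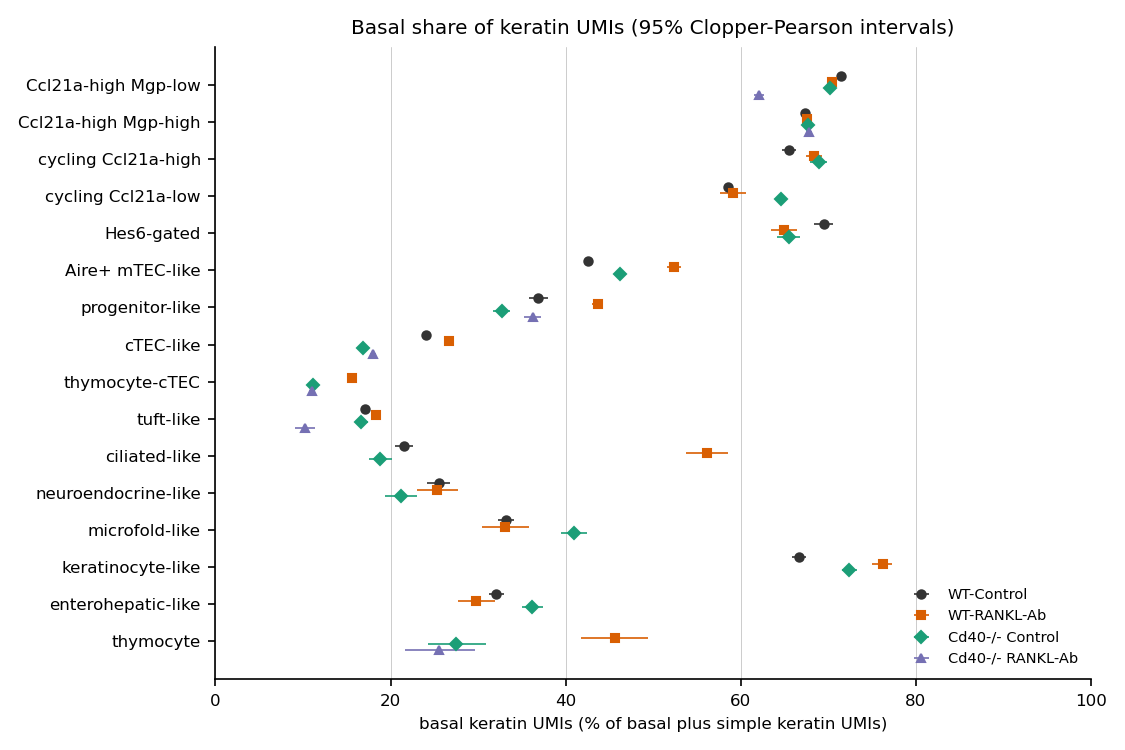
Basal keratin UMIs as a percent of basal plus simple keratin UMIs in each class with at least 50 cells, with the 4 libraries as colours and shapes and Clopper-Pearson 95% intervals as bars. Ccl21a-high Mgp-high cells sit between 67.3% and 67.8% in all 4 libraries, and cTEC-like cells between 16.9% and 26.7% (11.6% to 16.5% with cells past 1 gate only, not drawn).

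Single cells with transcripts of both Krt5 and Krt8 were counted after thinning each cell to 1000 UMIs. Both transcripts were present in 46.9%, 51.1%, 45.1% and 54.8% of Ccl21a-high Mgp-low cells, and without thinning 88.8%, 88.4%, 84.4% and 91.5% did. Progenitor-like cells held both in 8.81%, 17.6%, 9.72% and 13.3% after thinning and in 41.2%, 50.1%, 26.6% and 45.6% without it. In cTEC-like cells the thinned shares were 8.70%, 23.9%, 13% and 28.0%, and the unthinned ones 25.5%, 47.6%, 29.3% and 52.7%. As gated, both RANKL-Ab libraries were high, with intervals of 20.5% to 27.5% and 23.4% to 33.0%, apart from those of the controls. With cTEC-like cells past 1 gate only, the thinned shares were 8.14% (3.34% to 16.1%), 12.0% (8.76% to 15.8%), 9.50% (7.11% to 12.4%) and 20.6% (15.8% to 26.2%), so WT-RANKL-Ab overlapped both controls and Cd40-/- RANKL-Ab was apart from Cd40-/- Control. The shares with cells past 1 gate only came from another random thinning. In progenitor-like cells of Cd40-/- RANKL-Ab, where no cell passed several gates, the share was 13.3% in the first draw and 10.1% in the other. Ccl21a moved with the shares of the cTEC-like class as gated, at 1913, 5371, 1856 and 4086 CPM, and its part in them was not tested.

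Thymocyte-gated cells, which should lack both keratins, served as a background for free RNA. Cells with thymocyte genes that also passed the gate of a TEC class were placed elsewhere, so this background may be too low. After thinning, 1.25%, 0.476% and 0.685% of thymocyte-gated cells held both transcripts in the 3 libraries other than WT-Control. Their median depths before thinning were 1806.0, 1504.0 and 1677.0 UMIs. Unthinned shares were 4.19%, 3.56% and 4.97%. WT-Control held 31 such cells, too few for a share, and wherever the thymocyte-gated level is subtracted below, that of WT-Control rests on these 31 cells. The median depths of cTEC-like cells were 9039.0, 7242.0, 6524.0 and 9719.0 UMIs, and their thinned shares lay above that of thymocyte-gated cells in each library that had one. Within Ccl21a-high Mgp-low cells, Krt5 was found in 70.1%, 74.6%, 68.1% and 74.1% of cells with Krt8 and in 71.3%, 73.8%, 61.4% and 66.7% of cells without it.

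RANKL neutralization in wild-type mice asks what loss of RANK signals does to the keratins of each class while CD40 is present. Krt5, Krt14 and Krt7 were higher in WT-RANKL-Ab than in WT-Control in most classes. Krt17, Krt8 and Krt18 changed little in the Ccl21a-high cells. Krt15 and Krt19 were lower in both Ccl21a-high classes.

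Of the 14 classes with at least 50 cells in both wild-type libraries, the interval of the Krt7 ratio lay above 0 in 13 and below 0 in none. Krt5 was above 0 in 11 classes and below in none, and Krt14 was above in 10 and below in 2 (enterohepatic-like and tuft-like). Krt17 was above in 8 and below in 1, Krt8 and Krt18 were each above in 6 and below in 3, Krt15 was above in 2 and below in 8, and Krt19 was above in 2 and below in 6. These counts are of classes as gated. Cells past several gates made up 55.7% and 78.0% of ciliated-like cells in WT-Control and WT-RANKL-Ab, and 85.8% and 71.2% of enterohepatic-like cells. They were 79.9% and 71.6% of microfold-like, 73.5% and 55.1% of keratinocyte-like, and 65.8% and 27.3% of neuroendocrine-like cells. Ratios without them were not calculated in these classes. After the thymocyte-gated level was subtracted, which was tried in all classes after seeing the data, the Krt14 ratio turned in Aire+ mTEC-like (0.18 to -0.48) and microfold-like cells (0.57 to -0.23). Over the same 14 classes, 25.2% of the ratios of all genes with at least 50 UMIs lay above 0 by this rule and 15.9% below. The keratin counts had no such minimum. Genes with many UMIs have narrow intervals, and these shares were not matched to the keratins for abundance. In the 4 classes where other scalings were calculated, Krt5, Krt14 and Krt7 stayed higher under each scaling, while Krt17 turned in Ccl21a-high Mgp-low (0.08 to -0.04) and progenitor-like cells (0.15 to -0.02) with TMM factors. TMM scaling moved all log2 ratios against WT-Control by -0.32 to -0.08, and those against Cd40-/- Control by -0.07 to 0.06.

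Krt7 of Ccl21a-high Mgp-low cells rose by 0.69 (0.65 to 0.73) on the log2 scale, Krt14 by 0.52 (0.49 to 0.55) and Krt5 by 0.50 (0.47 to 0.53). Without cells that passed the gates of several classes Krt5 rose by 0.31, and as a mean over cells Krt14 rose by 0.29. Krt8 and Krt18 rose by 0.15 and 0.23, the latter by 0.11 as a mean over cells. At a fold of 2, Krt15 (log2 ratio -2.28) and Krt19 (-1.30, or -2.02 with gate limits 1.5 times as low) were past the limit, 2 of 8 members, where 8.70% of all 13803 genes tested were. The median log2 ratio was 0.19 over the 8 members and 0.11 over all genes tested. The basal sum rose by 0.23, or by 0.09 when cells past several gates were left out, and the simple sum rose by 0.30, or by 0.18 with TMM factors.

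In Mgp-high cells Krt7 rose by 0.67 (0.63 to 0.70), near its rise in the Mgp-low class. Without cells past several gates it rose by 0.64 (0.60 to 0.68) in Mgp-high and by 0.55 (0.51 to 0.59) in Mgp-low cells. A difference between the classes was not tested. Krt14 rose by 0.31 and Krt5 by 0.22 (0.12 with TMM factors), and Krt17 had a ratio of 0.00 with an interval including 0. Krt18 fell by 0.11, and the small rise of Krt8 (0.04) turned to -0.06 with TMM factors. Krt15 (-1.70) and Krt19 (-1.24) were 2 of 8 members past the 2-fold limit, with 7.48% of all genes past it. The Krt19 ratio ranged from -2.47 without cells past several gates to -0.65 with lower gate limits.

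Progenitor-like cells also had more of the basal pair and of Krt7. Krt5 rose by 0.99 (0.81 to 1.18), Krt14 by 0.86 (0.76 to 0.97) and Krt7 by 0.86 (0.71 to 1.01, or 0.56 as a mean over cells). Krt8 (0.08) and Krt18 (-0.04) had intervals including 0. With cells past 1 gate only, Krt8 was at 0.12 (0.03 to 0.21) and Krt18 at -0.19 (-0.27 to -0.11). Only Krt15 passed the 2-fold limit, 1 of 8 members against 10.8% of all genes, with 37 UMIs against 4. Of the Krt15 UMIs, 51.4% in WT-RANKL-Ab came from 1 cell. The Aire+ marker list summed to 2570.2, 155, 962 and 24.1 CPM in the progenitor-like class, with Srgn its most abundant gene and Cd80 at 0 in Cd40-/- RANKL-Ab. Its part in the keratin ratios was not tested.

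Of the 5 classes with at least 50 cells in every library, the cTEC-like class as gated had the highest Krt5 ratio in each comparison. Ciliated-like cells, with 50 cells in WT-RANKL-Ab, had a higher one in the wild-type comparison (2.59 on 111 against 123 UMIs). Krt5 stood at 131 (119 to 144), 524 (505 to 544), 229 (217 to 242) and 530.2 (508 to 553) CPM, so that both RANKL-Ab libraries were high, overlapped each other and lay apart from both controls. The log2 ratio of WT-RANKL-Ab to WT-Control was 2.0 (1.85 to 2.15) for Krt5, 1.25 (1.14 to 1.36) for Krt7 and 0.80 for Krt14, the last 0.27 after the thymocyte-gated level was subtracted (107 CPM in WT-RANKL-Ab and 6.40 CPM in WT-Control). Krt5, Krt7, Krt15 and Krt19 were past the 2-fold limit, 4 of 8 members, in a comparison where 26.0% of all genes were. For Krt15 the counts were 13 and 29 UMIs.

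Many cTEC-like cells also passed the gate of another class, namely 69.3%, 40.8%, 25% and 28.2% of them. In the class as gated, the Aire+ list summed to 5795, 782, 902 and 209 CPM, with none of its 6 genes at 0 and Srgn the most abundant in 3 libraries, and Ccl21a was high in the RANKL-Ab libraries, as given above. With cells past 1 gate only (99, 368, 578 and 270 cells), Krt5 was at 111 (91.2 to 134), 177 (163 to 192), 134 (123 to 145) and 337 (316 to 358) CPM. The antibody ratio of Krt5 in wild-type mice was then 0.67 in place of 2.0, close to the 0.69 of progenitor-like cells past 1 gate only, with the RANKL-Ab libraries above their controls. That of Krt7 was 0.11 (-0.05 to 0.28) in place of 1.25, so neither gene was past the 2-fold limit. Krt19 then had 13 against 4 UMIs, too few for that limit. In those cells the Aire+ list was at 187, 91.4, 111 and 109 CPM and Ccl21a at 264, 534, 248 and 563 CPM, highest where Krt5 was highest. Whether cells of other classes in the cTEC-like gate account for the remaining Krt5 difference was not tested.

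The simple pair of cTEC-like cells depended on the same cells. As gated, the antibody ratios in wild-type mice were 0.30 for Krt8 and 0.41 for Krt18, and with cells past 1 gate only they were -0.02 and -0.23. Krt18 was then at 8559, 7316, 6740.1 and 8325 CPM and Krt8 at 5185, 5107, 4248 and 4784 CPM. WT-Control, lowest of the libraries for both genes as gated, had the highest value for both once cells past several gates were left out, but for each gene its interval overlapped that of the next library.

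**Figure D3:**
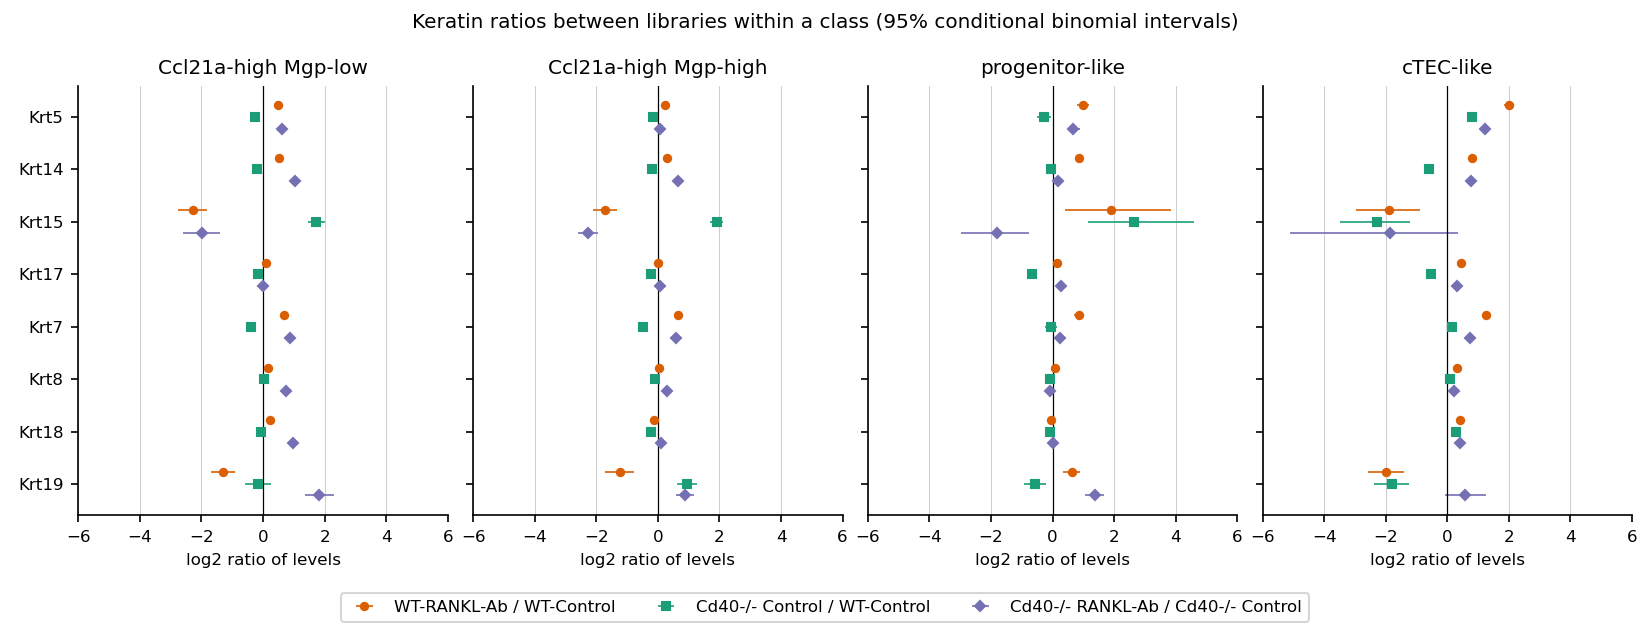
Log2 ratios of the 8 keratins with conditional binomial 95% intervals in 4 classes, for WT-RANKL-Ab against WT-Control, Cd40-/- Control against WT-Control and Cd40-/- RANKL-Ab against Cd40-/- Control, all without the TMM factors that turned Krt17 in Ccl21a-high Mgp-low cells from 0.08 to -0.04. Krt7 lies above 0 in both antibody comparisons in all 4 classes, and Krt5 in cTEC-like cells lies at 2.0 and 1.21. With cTEC-like cells past 1 gate only (not drawn), Krt5 is at 0.67 and 1.33, and Krt7 in wild-type mice at 0.11 (-0.05 to 0.28).

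In the tuft-like class the antibody comparison in wild-type mice gave lower simple keratins. Krt19 fell by 0.60 on the log2 scale, Krt18 by 0.32 and Krt8 by 0.11, whereas Krt7 rose by 0.54. Krt15 had 0 UMIs in WT-RANKL-Ab, which allows up to 3 UMIs, against 12 UMIs in WT-Control. In Aire+ mTEC-like cells Krt5 stood at 71.3, 149 and 66.6 CPM in the first 3 libraries and Krt17 at 1868, 3072 and 1839 CPM. WT-RANKL-Ab was high for both genes, with log2 ratios of 1.06 and 0.72, or 0.51 and 0.71 after the thymocyte-gated level was subtracted (Krt5 at 56.6 CPM in WT-RANKL-Ab and 6.40 CPM in WT-Control). The median depth of the class was 2462.0 UMIs per cell in WT-RANKL-Ab against 10368.5 in WT-Control, and the part of depth in the ratios was not tested. The basal share of the class was 42.5%, 52.4% and 46.2%.

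Loss of CD40 alone was compared in control-treated mice, to ask what CD40 contributes while RANKL is present. All keratins but Krt15 lay below WT-Control in more classes than above it in Cd40-/- Control. Of 14 classes, Krt18 was lower in 11 and higher in 2, and Krt8 lower in 9 and higher in 2. Krt5 and Krt17 were each lower in 9 and higher in 3. Krt7 was lower in 8 and higher in 2, Krt19 lower in 8 and higher in 3, and Krt14 lower in 7 and higher in 5. Krt15 was lower in 4 and higher in 7. Over these classes 16.6% of the ratios of all genes with at least 50 UMIs lay below 0 and 30.7% above, again not matched to the keratins for abundance. Krt15 went the other way in the Ccl21a-high cells.

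In Ccl21a-high Mgp-low cells the log2 ratio was -0.38 (-0.45 to -0.32) for Krt7, -0.25 for Krt5 (-0.38 without cells past several gates), -0.20 for Krt14 (-0.34 as a mean over cells) and -0.15 for Krt17. Krt8 (0.02) had an interval including 0. Krt15 rose by 1.73 (1.46 to 2.0), the only 1 of 8 members past the 2-fold limit, where 8.02% of all genes were. In Mgp-high cells Krt15 rose by 1.91 (1.70 to 2.11), again as the only member past the limit, with 6.90% of all genes past it. There Krt7 fell by 0.49 and Krt19 rose by 0.96 on 161 against 156 UMIs, or by 0.93 without the shared barcodes and 0.19 after subtraction of the thymocyte-gated level.

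Progenitor-like cells of Cd40-/- Control had less Krt17, with a log2 ratio of -0.67 (-0.78 to -0.56), and less Krt19 (-0.58, or -0.34 as a mean over cells). Their Krt14, Krt7 and Krt8 ratios had intervals including 0, where Krt7 was at -0.20 (-0.39 to -0.01) with cells past 1 gate only. Krt15 was past the 2-fold limit, 1 of 8 members against 15.6% of all genes, on 35 UMIs of which 51.4% were in 1 cell. With cells past 1 gate only, the Krt15 ratio was 1.37 (-0.25 to 3.40) on 17 against 4 UMIs, with an interval including 0. In cTEC-like cells Krt5 rose by 0.80 while Krt14 fell by 0.58 and Krt17 by 0.54. With cells past 1 gate only, the ratios of Krt5 (0.27, -0.04 to 0.58) and Krt14 (-0.02) had intervals including 0. Krt15 and Krt19 (-1.81) were past the limit there, 2 of 8 members against 32.8% of all genes, and with cells past 1 gate only Krt19 had a ratio of 0.05 (-1.57 to 2.08) on 17 against 4 UMIs. The rises of Krt8 (0.09) and Krt18 (0.29) became -0.29 and -0.34 with cells past 1 gate only, and with TMM factors Krt8 turned to -0.17.

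Antibody and CD40 loss together were compared with WT-Control to ask what happens when both signals are missing. In Ccl21a-high Mgp-low cells both genes of the simple pair rose. Krt18 rose by 0.88 (0.84 to 0.93) and Krt8 by 0.76 (0.71 to 0.81), or by 0.88 and 0.73 without the shared barcodes. Krt14 rose by 0.85 (0.80 to 0.89) and Krt5 by 0.37, or by 0.38 and 0.09 without cells past several gates, while Krt17 fell by 0.14. Krt19 rose by 1.69 (1.30 to 2.06) and was 1 of 8 members past the 2-fold limit, where 17.9% of all genes were, but with gate limits 1.5 times as low it rose by 0.37 and was not past it. The basal sum rose by 0.16, and this rise turned to -0.09 when cells past several gates were left out.

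In the Mgp-high class Krt18 fell by 0.11 and Krt8 rose by 0.19, or by 0.19 and 0.11 with TMM factors, and a difference from the Mgp-low class was not tested. Krt14 rose by 0.49, or by 0.32 as a mean over cells. Krt19 rose by 1.84 (1.55 to 2.14), or by 1.44 without the shared barcodes, and was the only member past the 2-fold limit, with 13.4% of all genes past it. The basal (0.08) and simple (0.05) sums moved so little that TMM factors turned them to -0.01 and -0.03.

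In progenitor-like cells of Cd40-/- RANKL-Ab, 0 of 7 members with enough UMIs were past the 2-fold limit, against 12.8% of all genes. Krt19 rose by 0.79 (0.33 with higher gate limits), Krt5 rose by 0.40 (0.08 with an interval including 0 without cells past several gates), and Krt17 had a ratio of -0.38 (-0.14 without those cells). In cTEC-like cells Krt5 rose by 2.01 (1.86 to 2.17), or by 2.23 without the shared barcodes and 1.60 with cells past 1 gate only, and it was past the limit with Krt15 and Krt19, 3 of 8 members against 32.8% of all genes. The Krt15 ratio of -4.16 (-7.27 to -2.18) rested on 2 UMIs in Cd40-/- RANKL-Ab. Krt18 rose by 0.70 in the class as gated and had a ratio of -0.04 with cells past 1 gate only, and the Krt19 ratio of -1.22 was then 1.14 (-0.38 to 3.12) on 27 against 4 UMIs, with an interval including 0.

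The antibody comparison within Cd40-/- mice asks what RANKL does when CD40 is absent. In Ccl21a-high Mgp-low cells Krt17 (0.01) had an interval including 0, but was at -0.09 (-0.13 to -0.05) without cells past several gates. Krt14 rose by 1.05 (0.99 to 1.10), Krt18 by 0.96 (0.91 to 1.01), Krt7 by 0.87 (0.78 to 0.95), Krt8 by 0.74 (0.68 to 0.79) and Krt5 by 0.62 (0.56 to 0.68). Without the shared barcodes these ratios were 1.07, 0.96, 0.88, 0.71 and 0.62. The simple sum rose by 0.86 (0.83 to 0.90) and the basal sum by 0.34 (0.31 to 0.36), the latter by 0.16 when cells past several gates were left out. Krt14 rose by 0.68 without those cells.

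Krt14, Krt15 and Krt19 were past the 2-fold limit in that comparison, 3 of 8 members against 11.1% of all genes, and the median log2 ratio was 0.80 over the members and 0.01 over all genes. Krt19 rose by 1.83 (1.36 to 2.31) on 91 UMIs, of which 26.4% were in 1 cell, by 0.17 with gate limits 1.5 times as low and by 3.12 after subtraction of the thymocyte-gated level. Krt15 had a ratio of -1.97 on 27 UMIs, or -3.33 without cells past several gates. Other marker lists moved with these ratios in Ccl21a-high Mgp-low cells. The cTEC list summed to 581, 1251, 945 and 1740.5 CPM with Tbata most abundant and none of its 7 genes at 0, the progenitor list to 139, 212, 294 and 672 CPM with Dcn most abundant, and the Aire+ list to 1864, 954, 1175 and 542 CPM with Aire at 0 in Cd40-/- RANKL-Ab. Their part in the keratin ratios was not tested.

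In Mgp-high cells the same comparison gave a rise of 0.67 (0.64 to 0.70) for Krt14 and 0.59 (0.53 to 0.65) for Krt7, or 0.66 and 0.54 without the shared barcodes. Krt8, Krt18, Krt5 and Krt17 rose by 0.29, 0.09, 0.08 and 0.07, where Krt5 was at 0.02 with higher gate limits and Krt17 at 0.00 with lower ones. Krt15 fell by 2.26 (-2.58 to -1.95 as a ratio) and was 1 of 8 members past the limit, where 8.60% of all genes were. The cTEC list was at 416, 704, 726 and 709.6 CPM in Ccl21a-high Mgp-high cells and the progenitor list at 322, 588, 659 and 1428 CPM. Over the 7 classes with enough cells in both Cd40-/- libraries, Krt18 was higher with the antibody in 5 and lower in none, and Krt8 was higher in 5 and lower in 1 (progenitor-like). Of the ratios of all genes with at least 50 UMIs over these 7 classes, 13% were higher and 19.1% lower, not matched to the keratins for abundance. Both keratin ratios were highest in the Mgp-low class, and differences between classes in them were not tested.

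Progenitor-like cells of the Cd40-/- mice had more Krt19 with the antibody, a rise of 1.37 (1.07 to 1.67) with or without the shared barcodes. Krt5 rose by 0.68, or by 0.75 without those barcodes and 0.40 with higher gate limits, and Krt18 (0.01) had an interval including 0. Krt15 and Krt19 were past the 2-fold limit, 2 of 8 members against 8.33% of all genes. With cells past 1 gate only, Krt15 had a ratio of -0.93 (-2.22 to 0.28) on 10 against 17 UMIs. It was then not past the limit, and its interval included 0. In cTEC-like cells Krt5 rose by 1.21 (1.11 to 1.31), or by 1.43 without the shared barcodes and 1.33 with cells past 1 gate only. Krt18 rose by 0.41 and Krt8 by 0.23. Krt5 was the only member of 7 past the limit, where 7.13% of all genes were, and Krt14 rose by 0.76 (0.09, with an interval including 0, for cells past 1 gate only) and Krt7 by 0.74.

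Tuft-like cells of Cd40-/- RANKL-Ab, 66 in number, had less Krt17 than those of Cd40-/- Control, at 315 against 652 CPM. The log2 ratio was -1.05 (-1.31 to -0.79), or -1.32 without the shared barcodes. Krt8 and Krt18 differed little there, by 0.11 and 0.19, or by 0.03 and 0.09 without those barcodes. Across the 7 classes with enough cells in both Cd40-/- libraries, Krt7 was higher with the antibody in 5 and lower in none. In the main setting, antibody ratios in wild-type and Cd40-/- mice had intervals on opposite sides of 0 in 6 of 38 keratin pairs. The pairs, over 5 classes, had at least 20 UMIs in both comparisons, and 8.21% of the pairs of all genes were opposite. Which keratin pairs were opposite depended on the gating, as given below.

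Whole libraries mixed these levels with the shares of the classes. The basal sum of all cells was 4067, 6475, 3194 and 5009 CPM and the simple sum 3511, 5245, 3663 and 6693 CPM, so both sums were highest in a RANKL-Ab library. For WT-RANKL-Ab the library log2 ratio of 0.67 for the basal sum became 0.40, and that of 0.58 for the simple sum became 0.20, once classes were weighted as in WT-Control. For Cd40-/- RANKL-Ab the basal ratio of 0.30 became -0.05 and the simple ratio of 0.93 became 0.09, with classes of few cells such as the 4 Aire+ mTEC-like ones weighted in. The 5 classes with at least 50 cells in every library and the ungated cells together held 38.3% of the WT-Control UMIs. Over those sums the basal ratio of WT-RANKL-Ab was 0.12, and 0.20 with the weights, and its simple ratio 0.29 and 0.18. Cd40-/- RANKL-Ab had a basal ratio of -0.18, and 0.08 with the weights, and a simple ratio of 0.57 and 0.32, so the direction of its basal sum depended on the classes counted and on their weights.

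Members correlated as filament pairs and beyond them over the 57 sums, which share 4 libraries. Sums of thymocyte-gated cells were among them, and r without those sums was not calculated. Krt5 and Krt14 had r = 0.91 and Krt8 and Krt18 had r = 0.88. Krt17 followed the basal sum (r = 0.98), of which it is the largest part, while Krt15 did so weakly (r = 0.35). The basal and simple sums had r = 0.37 with each other, and Krt19 had r = 0.20 with the simple sum it belongs to.

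Among 3300 other genes, the 5 most like the basal sum over the same 57 sums were Tpm2 (r = 0.90), Ifitm3 (0.89), Ggt5 (0.86), Trim47 (0.86) and Mmp14 (0.86). Tpm2, a tropomyosin of the actin cytoskeleton, reached 2021 CPM in Ccl21a-high Mgp-low cells of Cd40-/- RANKL-Ab. The 5 most like the simple sum were Spryd7 (0.85), Tsc22d1 (0.83), Tnc (0.82), Chchd7 (0.82) and S100a1 (0.80). Tnc, the matrix glycoprotein tenascin C, was highest in cTEC-like cells of Cd40-/- RANKL-Ab at 639 CPM. The lowest sum was of thymocyte-gated cells for each gene like the simple sum and, apart from Tpm2, for each gene like the basal sum. The part of these cells in the r values was not tested.

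Of 45 other keratins, 19 reached 50 CPM in at least 1 class, and most of them peaked in keratinocyte-like cells. Krt10 and Krt1, the pair of differentiating epidermis, reached 1649 and 707 CPM there in Cd40-/- Control. Krt16, which is close in sequence to Krt14 and Krt17, reached 651 CPM in keratinocyte-like cells and had a median of 10.4 CPM over all 57 sums. How reads shared between these paralogs were assigned was not tested. Krt20, an intestinal keratin, peaked in microfold-like cells at 488 CPM.

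Keratin filaments end at desmosomes, which join cells, and at hemidesmosomes, which hold cells to the basement membrane. In Ccl21a-high Mgp-low cells, 8 of the 9 desmosome genes with enough UMIs had intervals above 0 in WT-RANKL-Ab against WT-Control, led by the plakophilin Pkp1 (0.67), and the plakophilin Pkp3 was lower (-1.05). Of all genes with at least 50 UMIs, 37.3% were higher and 18.1% lower by the same rule. With CD40 loss alone, 6 of 9 were higher, where 33.5% of all genes were, and Pkp3 was lower again (-1.26), as were 17.8% of all genes, while Pkp2 rose by 2.17. With both treatments combined, 6 of 9 were higher and none lower, against 27.4% and 16.4% of all genes, with Pkp2 at 2.58.

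All 8 hemidesmosome and basal adhesion genes were higher in Cd40-/- RANKL-Ab than in WT-Control in both Ccl21a-high classes, against 27.4% of all genes in the Mgp-low and 32.3% in the Mgp-high class. In Ccl21a-high Mgp-low cells their median log2 ratio was 1.09, with 0.15 for all genes, led by the hemidesmosome collagen Col17a1 (2.13). In Ccl21a-high Mgp-high cells it was 0.94, with 0.10 for all genes and Col17a1 at 2.20. The antibody alone gave 5 higher and 1 lower in the Mgp-low class, where 37.3% and 18.1% of all genes were, with a median of 0.17 near the 0.15 of all genes. CD40 loss alone gave 5 higher and none lower, against 33.5% and 17.8% of all genes, with a median of 0.51 against 0.13. Against Cd40-/- Control, Cd40-/- RANKL-Ab had 7 higher and Itga6 lower (-0.47) in the Mgp-low class, where 17.2% of all genes were higher and 16.1% lower. In the Mgp-high class 6 were higher and Itga6 lower (-0.51), against 18.3% and 26.5% of all genes. Scaling alternatives were not calculated for these lists, and their ratios are those of the classes as gated. Cells past several gates made up 11.4% of Mgp-high cells in WT-Control and 44.1% in Cd40-/- RANKL-Ab. In the Mgp-low class they made up 16.7% and 19.7%. Their part in the ratios of these lists was not tested.

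Transcription factors known to act on keratin genes and keratin linkers were also counted. Of 5 such factors with enough UMIs in Ccl21a-high Mgp-low cells, all were higher in Cd40-/- RANKL-Ab than in WT-Control (median 0.51), where 27.4% of all genes were. Foxn1, the master regulator of TECs, rose most among them, by 1.17. In WT-RANKL-Ab 2 of the 5 were higher, with Foxn1 at 0.75, and Klf5 was lower (-0.25), for a median of 0.13, where 37.3% and 18.1% of all genes were. Of 5 keratin linkers with enough UMIs, 3 were higher and 1 was lower in WT-RANKL-Ab, where 37.3% of all genes were higher and 18.1% lower. Periplakin (Ppl) and trichoplein (Tchp) rose by 0.68 each, and filaggrin (Flg) had 0 UMIs against 66. Epiplakin (Eppk1) was the 1 of 5 higher in Cd40-/- Control (0.71) and in the Cd40-/- antibody library (1.01), with Flg lower in both. Of all genes 33.5% were higher and 17.8% lower in the former, and 27.4% and 16.4% in the latter. In Mgp-high cells of WT-RANKL-Ab no linker was higher and Flg was lower (-1.30), where 35.7% and 18.1% of all genes were.

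The members lie in the keratin clusters of the mouse genome (GRCm38, GENCODE M21). The type II genes and Krt18 are on chromosome 15: Krt7 (ENSMUSG00000023039) at chr15:101411043-101430313, Krt5 (ENSMUSG00000061527) at chr15:101707070-101712898, Krt8 (ENSMUSG00000049382) at chr15:101996698-102004482 and Krt18 (ENSMUSG00000023043) at chr15:102028180-102032027. The type I genes Krt15 (ENSMUSG00000054146), Krt19 (ENSMUSG00000020911), Krt14 (ENSMUSG00000045545) and Krt17 (ENSMUSG00000035557) are on chromosome 11, at chr11:100131758-100135928, chr11:100140810-100148665, chr11:100203162-100207548 and chr11:100256217-100261029. Krt9 lies between Krt19 and Krt14, and Krt16 between Krt14 and Krt17. Krt19 and Krt15 are 4.88 kb apart. Krt19 was highest in tuft-like cells, whereas the highest Krt15 class differed between libraries. Krt5, Krt7 and Krt8 each overlap an annotated noncoding gene on the other strand (Gm44323, Gm671 and Gm36026).

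Krt8 and Krt18 are neighbours with 23.7 kb and no protein-coding gene between them, transcribed from opposite strands, and their levels had r = 0.88 over the 57 sums. Between libraries they did not always move alike, since in Mgp-high cells of Cd40-/- RANKL-Ab the ratio to WT-Control was -0.11 for Krt18 and 0.19 for Krt8. RefSeq promoter windows (250 bases before to 50 after the start, GRCm38.p6) were available for 5 of the 8 members, and those of this pair are shown because of that correlation. The motifs TATAAA (a sequence of TATA boxes), TGANTCA (bound by AP-1), GGGCGG (bound by Sp1) and GCCNNNGGC (bound by AP-2) were searched on both strands. Capitals mark TATAAA together with its overlapping match on the reverse strand in Krt8 (chr15:102004293-102004592, minus strand) and GCCNNNGGC in Krt18 (chr15:102027966-102028265, plus strand). The Krt8 stretch spans bases -3 to 4 around its RefSeq start, which is not the usual place of a TATA box before a start, and that start lies 140 bases downstream of the GENCODE M21 start. The Krt18 match spans bases -83 to -75. TATAAA is found in 13.6% of all 32851 promoters of that length, GCCNNNGGC in 16.6%, GGGCGG in 35.7% and TGANTCA in 7.81%.
Krt8: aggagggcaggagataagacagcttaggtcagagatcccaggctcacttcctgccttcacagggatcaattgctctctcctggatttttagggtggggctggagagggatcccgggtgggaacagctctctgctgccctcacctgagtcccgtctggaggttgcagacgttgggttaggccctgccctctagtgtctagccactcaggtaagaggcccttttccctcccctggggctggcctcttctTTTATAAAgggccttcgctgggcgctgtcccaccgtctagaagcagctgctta
Krt18: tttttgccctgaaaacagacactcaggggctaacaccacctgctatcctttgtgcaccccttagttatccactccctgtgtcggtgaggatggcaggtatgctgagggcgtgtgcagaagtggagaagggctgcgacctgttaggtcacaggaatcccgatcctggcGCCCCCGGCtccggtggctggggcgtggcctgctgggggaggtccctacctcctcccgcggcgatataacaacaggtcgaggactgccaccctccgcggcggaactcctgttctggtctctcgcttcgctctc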

How the data were processed

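The authors deposited UMI counts per gene and cell barcode made with Cell Ranger 5.0.1 on mm10 (the labels name 5.1), with no normalization and no doublet removal stated. Genes of the deposited counts were matched by symbol. Barcodes with fewer than 200 genes (among genes seen in more than 5 cells) or with over 25% mitochondrial UMIs were removed. Cells took the first class, in a fixed order, whose marker sum per 10000 UMIs passed a limit, and the limits were set after the marker distributions had been seen. No doublet caller was run. Cells with thymocyte genes beside the gate of a TEC class other than cTEC were left ungated, and cells past several gates were left out in an alternative. UMIs were summed per class and library, and classes with fewer than 50 cells gave no level. Depth ranged from 19175068 to 95607338 UMIs per library. The precision is given by exact Poisson, conditional binomial and Clopper-Pearson 95% intervals. Only the conditional binomial intervals were tried on simulated data. Those counts were drawn as Poisson counts, so the trial checks the calculation and cannot show spread beyond counting error. Conditions were not tested against each other, each having a single library, and class differences used the exact permutation test over 4 libraries. For the count of members past a fold of 2, a gene needed 20 UMIs over the 2 libraries and 1 CPM was added to each level, beside the share of all genes past it. Partner lists were counted by interval, beside the share of all genes with at least 50 UMIs.

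The members, the marker lists and the partner lists (desmosome, hemidesmosome and basal adhesion, keratin linkers, keratin regulators) were chosen with earlier results of these data known. Genes named beyond the members were the 5 with the highest r to each sum, other keratins at 50 CPM or more, and examples of the partner lists with at least 50 UMIs, of which those with the largest ratios were picked after their values were seen. Alternatives were a mitochondrial limit of 13%, gate limits 1.5 times as high or low, cells with at least 2000 UMIs, subtraction of the thymocyte-gated level (from 31 cells in WT-Control, and extended to all classes after seeing the data), the mean over cells, scaling without Ccl21a and mitochondrial genes, edgeR's TMM factors, leaving out shared barcodes (chosen after seeing the data), and leaving out cells past several gates, which for co-detection was also chosen after seeing the data. TMM factors came from edgeR 4.0.16 in R 4.3.3, and the rest from Python 3.11.15 with pandas 2.3.3, scipy 1.17.1 and numpy 2.4.6, drawn with matplotlib 3.10.9. Annotation was GENCODE M21 and RefSeq GRCm38.p6.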

Additional observations from a re-analysis of the deposited data

Results flagged for a closer look

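The RANKL antibody moved a keratin in opposite directions in wild-type and Cd40-/- mice in 6 of 40 pairs of log2 ratios, over 5 classes with enough cells in the 4 libraries. Among pairs with at least 20 UMIs in each comparison these were 6 of 38 for the keratins and 8.21% of 54323 for all genes. Each pair drew attention because both intervals lay apart from 0 on opposite sides. With 1 library per condition the difference between the genotypes was not tested in any of them. These counts are of the main setting. With cells past 1 gate only, the progenitor-like Krt15 pair was no longer opposite. Other pairs became so, such as Krt18 in cTEC-like cells (-0.23 and 0.30) and Krt17 in Ccl21a-high Mgp-high cells (-0.02 and 0.15).

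In Ccl21a-high Mgp-low cells Krt19 had a ratio of -1.30 in wild-type mice (82 against 173 UMIs) and 1.83 in Cd40-/- mice (91 against 66 UMIs). The latter was 1.90 without the barcodes shared by the Cd40-/- libraries, 0.17 with gate limits 1.5 times as low and 3.12 after subtraction of the thymocyte-gated level. In Ccl21a-high Mgp-high cells Krt19 had -1.24 (51 against 156 UMIs) and 0.89 (240 against 161 UMIs), the latter 0.51 without shared barcodes and 1.66 after subtraction of the thymocyte-gated level. Krt18 in the Mgp-high class had the small ratios -0.11 and 0.09, the latter 0.06 without shared barcodes. In progenitor-like cells Krt15 had 1.90 (37 against 4 UMIs) and -1.79 (10 against 35 UMIs). In both WT-RANKL-Ab and the knockout control, 51.4% of the UMIs were in 1 cell. With cells past 1 gate only, the ratios were 1.52 (0.04 to 3.47) and -0.93 (-2.22 to 0.28), the latter with an interval including 0. In tuft-like cells Krt8 had -0.11 and 0.11, and Krt18 had -0.32 and 0.19, with the values of Cd40-/- mice at 0.03 and 0.09 without shared barcodes.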

How the results depend on the processing

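Conditions could not be compared in pairs of samples because each condition had 1 library of pooled mice, whereas class differences were taken within each library. The direction of 136 log2 ratios with intervals apart from 0 was kept in 1279 of 1324 recalculations over 10 settings, not counting the 35 wild-type ratios that hold no shared barcodes. It was kept in all 136 with the mitochondrial limit of 13%, with cells of at least 2000 UMIs and with scaling to UMIs without Ccl21a and mitochondrial genes, and in all 101 that hold a Cd40-/- library without shared barcodes (chosen after seeing the data). Of 534 recalculated class differences, 524 kept their sign. Where values changed, the cause was not tested. Of the 45 ratios that did not keep their direction, 6 came to 0.00. These were Krt17 in Ccl21a-high Mgp-low cells of WT-RANKL-Ab and the simple sum in Mgp-high cells of Cd40-/- RANKL-Ab, as means over cells, and the basal sum in Mgp-low and Krt8 in cTEC-like cells of Cd40-/- RANKL-Ab with TMM factors. The others were Krt14 in cTEC-like cells of Cd40-/- RANKL-Ab after subtraction and, against Cd40-/- Control, Krt17 in Mgp-high cells of Cd40-/- RANKL-Ab with lower limits. The rest are named below.

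Leaving out cells past several gates turned these ratios: in Ccl21a-high Mgp-low cells, Krt17 in WT-RANKL-Ab against WT-Control (0.08 to -0.05) and the basal sum in Cd40-/- RANKL-Ab against WT-Control (0.16 to -0.09); in progenitor-like cells, Krt14 in Cd40-/- RANKL-Ab (0.13 to -0.06, with an interval including 0). In cTEC-like cells against WT-Control it turned, for WT-RANKL-Ab, Krt8 to -0.02, Krt18 to -0.23 and the simple sum to -0.14. For Cd40-/- Control it turned Krt7 to -0.64, Krt8 to -0.29, Krt18 to -0.34, Krt19 to 0.05 and the simple sum to -0.33. For Cd40-/- RANKL-Ab it turned Krt7 to -0.10, Krt8 to -0.12, Krt18 to -0.04, Krt19 to 1.14 and the simple sum to -0.07. Of these, Krt8 in WT-RANKL-Ab, Krt7 in Cd40-/- RANKL-Ab and Krt19, on 4 UMIs in WT-Control, then had intervals including 0. The basal difference of progenitor-like from cTEC-like cells turned from -0.47 to 0.06, and that of Krt5 from -0.13 to 0.80. Leaving those cells out of the co-detection of Krt5 and Krt8 was chosen after seeing the data and came with another random thinning. In cTEC-like cells of WT-RANKL-Ab the share was 23.9% before and 12.0% after, and the part of the new draw in that move was not tested.

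TMM factors turned, in WT-RANKL-Ab against WT-Control, Krt17 in Ccl21a-high Mgp-low (-0.04), Krt8 in Mgp-high (-0.06), and Krt17 (-0.02) and the simple sum (-0.03) in progenitor-like cells. In Cd40-/- RANKL-Ab against WT-Control they turned the basal (-0.01) and simple (-0.03) sums in Mgp-high, Krt14 in progenitor-like (-0.05) and Krt14 in cTEC-like cells (-0.14). In cTEC-like cells of Cd40-/- Control they turned Krt7 (-0.11), Krt8 (-0.17) and the simple sum (-0.05). Subtracting the thymocyte-gated level turned Krt8 in Mgp-high cells of WT-RANKL-Ab (-0.03) and the simple sum there in Cd40-/- RANKL-Ab (-0.01). The mean over cells turned, in Cd40-/- RANKL-Ab against WT-Control, the basal sum in Mgp-high (-0.02) and Krt14 (-0.10) and Krt7 (-0.08) in progenitor-like cells, and against Cd40-/- Control Krt8 in progenitor-like cells (0.04). Lower gate limits turned Krt18 in progenitor-like cells of Cd40-/- Control (0.01) and the basal sum there in Cd40-/- RANKL-Ab (0.05). Higher limits turned Krt8 in progenitor-like cells of Cd40-/- RANKL-Ab against Cd40-/- Control (0.04) and, in cTEC-like cells of Cd40-/- Control, Krt7 (-0.21), Krt8 (-0.08) and the simple sum (-0.03).

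Other values moved without turning. The basal ratio of WT-RANKL-Ab to WT-Control in Ccl21a-high Mgp-low cells, 0.23, was 0.19 with higher and 0.26 with lower limits, 0.09 without cells past several gates, 0.21 after subtraction, 0.12 as the mean over cells and 0.11 with TMM. The simple ratio, 0.30, was 0.23, 0.27, 0.23 and 0.18 under the last 4 of these settings. For Cd40-/- RANKL-Ab against Cd40-/- Control the basal ratio, 0.34, was 0.29 with lower limits, 0.16 without cells past several gates, 0.28 as the mean over cells and 0.27 with TMM. The simple ratio, 0.86, was 0.80 with higher limits, 0.96 after subtraction, 0.78 as the mean over cells and 0.80 with TMM. Krt5 in cTEC-like cells, 2.0 for the antibody in wild-type mice, was 1.5 with higher and 2.24 with lower limits, 0.67 without cells past several gates and 1.77 with TMM. In Cd40-/- mice its 1.21 was 1.33 without cells past several gates, 1.43 without shared barcodes, 1.35 after subtraction and 1.33 as the mean over cells.

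Over 16 comparisons the share of all genes past a 2-fold ratio ran from 6.90% to 32.8% (26 member counts). It ran from 2.72% to 29.3% (20) with at least 100 UMIs, from 1.07% to 14.4% (17) with 10 CPM added, and from 16.8% to 56.7% (52) at a fold of 1.5. Depth limits Krt15 and Krt19 most, whose class sums often held fewer than 100 UMIs, and the classes of Cd40-/- RANKL-Ab.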
